A study of Rattus norvegicus with 8 samples.

Results

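The miR-125 and miR-99/100 families were followed through 6 microRNAs (miRNAs) of rat cardiomyocytes: rno-miR-99b, rno-miR-125a-5p, rno-miR-125a-3p, rno-miR-99a, rno-miR-100 and rno-miR-125b-5p. They are written below without the species prefix. They were taken by name from the non-control spots of the array, and they are 6 of its 677 rat miRNAs. Cells of rats at postnatal day 10 (P10, 4 samples) were set against cells of the younger age that the sample labels call P0 (4 samples). The title and the design text of the study call the younger age day 1, and the name P0 is kept here. The labels give cardiomyocytes of male or female animals at both ages, with no strain, genotype or treatment, and they state that cell division is reduced at P10. Whether each replicate is an animal or culture of its own is not stated, and a p-value here therefore reflects sample spread that could be technical.

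A miRNA guides its effector complex to messenger RNAs mainly through its seed, the bases near its 5′ end, and lowers the output of those messengers. The miR-125 family is related to lin-4, the founding miRNA of Caenorhabditis elegans, which times developmental steps there. In vertebrates its genes lie beside genes of the miR-99/100 and let-7 families in conserved clusters. miR-99 and miR-100 are known to repress the growth kinase mTOR, and let-7 is known to restrain proliferation.

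The mature sequences show which members share a seed and where the families differ. Of the 6 members, 5 matched a mature entry of the RefSeq miRNA table (build GRCr8), and miR-99a is named only. Each sequence is written 5′ to 3′ with bases 2 to 8, the seed, in capitals. miR-99b* (the opposite strand of the miR-99b hairpin, miR-99b-3p in RefSeq) and miR-351 are shown because the first is compared with its partner strand below and the second shares the miR-125 seed.
miR-125a-5p: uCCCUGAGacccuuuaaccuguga
miR-125b-5p: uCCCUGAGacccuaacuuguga
miR-351: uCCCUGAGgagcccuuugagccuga
miR-99b: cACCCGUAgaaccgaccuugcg
miR-100: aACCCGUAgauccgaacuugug
miR-125a-3p: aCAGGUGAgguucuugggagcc
miR-99b*: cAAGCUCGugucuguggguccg

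The seed CCCUGAG was held by 3 of 692 distinct mature sequences in the table, those of miR-125a-5p, miR-125b-5p and miR-351. The seed ACCCGUA was held by 2, those of miR-100 and miR-99b. Counted base by base without gaps, miR-99b and miR-100 differed at 4 of 22 bases, outside the seed. miR-125a-5p and miR-125b-5p differed at 7 of the first 22, also outside the seed. They are 24 and 22 bases long, so a count without gaps can overstate how far they differ. The probes read the 3′ side, bases 6 to 22 of miR-125b-5p and 6 to 24 of miR-125a-5p, where the paralogs differ. At its best placement without gaps the miR-125b-5p probe had 5 mismatches in 17 letters to miR-125a-5p. The miR-125a-5p probe had 7 in 19 to miR-125b-5p, and with a gap allowed these counts could be lower. The miR-100 probe had 3 mismatches in 19 letters to miR-99b. The miR-99a probe had only 1 mismatch in 20 letters to miR-100. Cross-hybridisation was not tested.

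The members come from 3 clusters, each of a miR-99/100 gene, a let-7 gene and a miR-125 gene. Per the scanner files, on rat build rn4, the probe for miR-99b lies at chr1:56486982-56486996 and that for miR-125a-5p at chr1:56487600-56487617. In the RefSeq gene table Mir99b, Mirlet7e and Mir125a lie within the span of the protein-coding gene Spaca6. The probe for miR-99a lies at chr11:16397559-16397577, and Mir99a, Mirlet7c1 and Mir125b2 lie within the span of the long noncoding RNA LOC103693508. The probe for miR-100 lies at chr8:44518686-44518703, and Mir100, Mirlet7a-2 and Mir125b1 lie within the spans of Mir100hgl and Lnc215. That table holds no exons, so whether a hairpin is exonic or intronic is not given here. miR-125b-5p is made from both Mir125b1 and Mir125b2, and its probe reads them together.

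The arrays were 1-colour, on 1 slide and in 1 scan, with all P10 arrays on row 2 of the slide and all P0 arrays on row 1, so that row and age cannot be told apart. To scale the arrays, the 75th percentile of the 111 probes that every array detected was taken as each array's divisor. It was 580 to 1276 intensity units at P10 and 806 to 1326 in P0 replicates 2 to 4. P0 replicate 1 stood apart with 116 units and 73 miRNAs detected, against 156 to 183 on the other arrays. The P10 arrays fell into pairs: over 157 miRNAs replicates 1 and 2 correlated at r = 0.998 and replicates 3 and 4 at r = 0.997, while arrays of different pairs correlated at 0.889 to 0.898. Within the pairs 61.3% and 66.7% of the 111 probes still differed by more than 2 standard errors of their spots, but spot errors hold only the noise within an array, so this does not show whether the paired arrays are separate samples. The labels number 4 samples, which were kept, and results are also given with the pairs averaged. Summed scaled signals of the cardiomyocyte miRNAs were 9.26 to 20.7 at P10 and 11.7 to 17.1 at P0. None of 7 epithelial markers was detected on any array. Counting any probe on any array, 1 of 5 neural, 1 of 2 erythroid and 1 of 3 liver markers was detected.

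Between the ages, 2 members of the miR-99b/miR-125a cluster and 2 of the clusters with miR-125b differed in opposite directions, while miR-125a-3p and miR-99a overlapped. All 4 P10 arrays were below all 4 P0 arrays for miR-99b and miR-125a-5p, and above them for miR-100 and miR-125b-5p. That is 2 of 6 members in each direction, where 12.7% of the 157 tested miRNAs lay wholly lower at P10 and 13.4% wholly higher. No member passed the limma test on its own (Benjamini-Hochberg adjusted over 157 miRNAs, threshold 0.05): 0 of 6 were called, against 4.46% of tested miRNAs called higher and 4.46% called lower. At an unadjusted limma p under 0.05 there were 4 of the 6 members, and 28.7% of all tested miRNAs. The median difference over the members was 0.15 on the log2 scale, beside 0.034 over all tested miRNAs. Fewer cells of a type and less of a miRNA per cell cannot be told apart in such bulk RNA.

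miR-99b, encoded on chromosome 1 beside Mirlet7e, had scaled log2 levels of -2.75, -2.75, -3.19 and -3.02 on P10 arrays 1 to 4. Its levels on P0 arrays 1 to 4 were -2.32, -2.29, -2.32 and -2.35. The P0 arrays, the dim replicate 1 included, had an SD of 0.026, and every P10 array lay below them. The difference, P10 minus P0, was -0.61 ± 0.20 (SE, limma; n = 4 each; adjusted p = 0.0849), or 1.52-fold lower at P10. The second miR-99b probe gave -0.49.

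miR-125a-5p, from the same cluster, had levels of -1.15, -1.13, -1.39 and -1.39 on the P10 arrays. On the P0 arrays it had -0.73, -0.91, -0.72 and -0.77. As for miR-99b, the ages did not overlap and P10 replicates 3 and 4 were lowest. The difference was -0.48 ± 0.19 (SE, limma adjusted p = 0.138), and the second probe gave -0.48 as well. Without any scaling between arrays it was 0.043, where the median of all tested miRNAs was 0.35.

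miR-125b-5p had the largest difference among the members and the widest spread at P10. Its raw intensities were 4498, 3836, 2221 and 2340 units on P10 arrays 1 to 4, and 137, 1931, 1084 and 1619 units on the P0 arrays. Scaled log2 levels were 2.79, 2.73, 0.80 and 0.88 at P10 and 0.24, 0.54, 0.43 and 0.48 at P0. Every P10 array was above every P0 array, but replicates 1 and 2 stood nearly 2 log2 units above replicates 3 and 4. The difference was 1.37 ± 0.49 (SE, limma adjusted p = 0.114), or 2.59-fold higher at P10. The second probe gave 1.51.

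miR-100, encoded beside Mir125b1, had levels of -2.63, -2.68, -3.33 and -3.28 on the P10 arrays. It had -4.82, -3.59, -3.65 and -3.58 on the P0 arrays. The lowest value was that of P0 replicate 1, where the probe read 4.1 units and no spot was well above background. The remaining P0 arrays were still below every P10 array. The difference was 0.94 ± 0.34 (SE, limma adjusted p = 0.119), and the second probe gave 0.85. Over the alternatives it ran from 0.10, with normexp background correction (limma adjusted p = 0.938), to 2.53.

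miR-99a, encoded beside Mir125b2, had levels of -1.08, -1.13, -1.27 and -1.18 at P10 and -1.84, -1.23, -1.29 and -1.23 at P0. Apart from P0 replicate 1 the ages overlapped. The difference was 0.23 ± 0.22 (SE, limma adjusted p = 0.485), and it turned to -0.10 without P0 replicate 1 and to -0.023 with the scanner's total gene signal. miR-125a-3p, the opposite strand of miR-125a-5p, was dim, with 41.1 to 67 units at P10 and 13.1 to 54.8 units at P0. Its scaled levels were -3.83, -3.82, -4.39 and -4.24 at P10 and -3.14, -4.60, -4.40 and -4.43 at P0, and P0 replicate 1 did not count as detected. Its difference was 0.073 ± 0.35 (SE, limma adjusted p = 0.909), with a sign that turned in several alternatives.

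**Figure D1:**
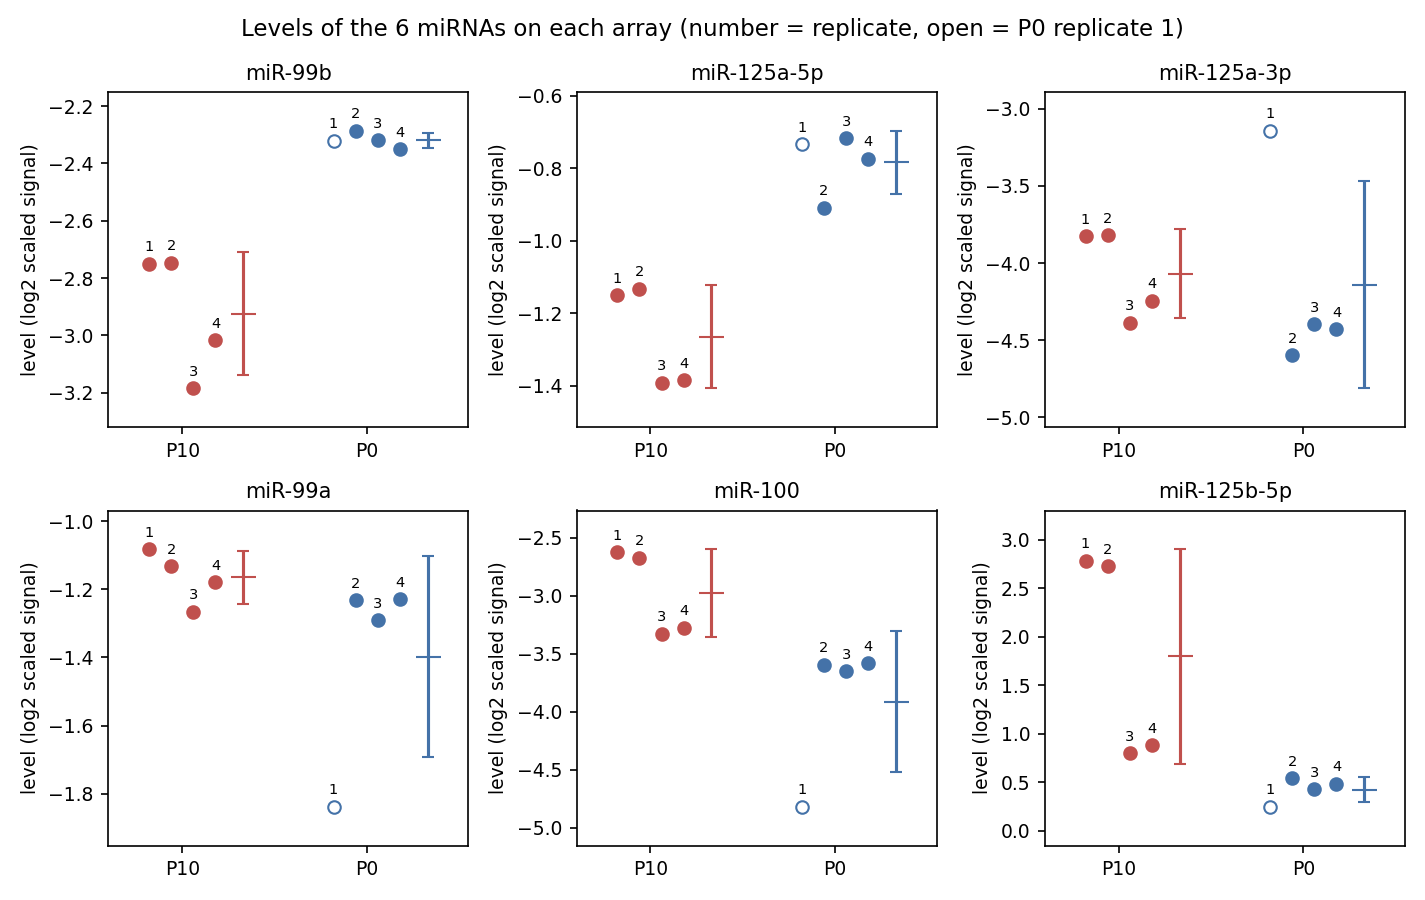
Scaled log2 level of each of the 6 miRNAs (vertical axes) on the P10 and P0 arrays. Points are arrays numbered by replicate, the open point is P0 replicate 1, and the bar beside each age is the mean ± SD (n = 4). miR-99b and miR-125a-5p lie lower at P10 with no overlap, and miR-100 and miR-125b-5p lie higher.

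The calls of single members depended on which arrays and settings were used. Without P0 replicate 1, and with scaling redone, 167 miRNAs were tested, and 15% of them were called higher and 27.5% lower at P10. miR-99b was then lower at P10 (-0.79 ± 0.11 SE, limma adjusted p = 0.00200), miR-125a-5p was lower (-0.65 ± 0.13 SE, adjusted p = 0.0110) and miR-100 was higher (0.45 ± 0.10 SE, adjusted p = 0.0141). miR-125b-5p was 1.13 ± 0.43 (SE) higher with an adjusted p of 0.0683. Over these arrays 3 of 6 members lay wholly higher at P10 (miR-100, miR-125b-5p and miR-125a-3p) and 2 of 6 wholly lower, where 22.8% and 38.3% of the tested miRNAs did. With the P10 pairs also averaged to 1 sample each, 6.59% of tested miRNAs were called higher and 13.2% lower. miR-99b (limma adjusted p = 0.0233) and miR-125a-5p (0.0498) were among those called lower, and miR-100 was not called. With all 8 arrays and the P10 pairs averaged, 0% were called in either direction.

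The P10 pairs weighed on the members differently. Without P10 replicates 3 and 4, 29.9% of tested miRNAs were called higher and 15.6% lower. miR-125b-5p was then 2.32 ± 0.11 (SE) higher (limma adjusted p = 4.68e-05), miR-99b was lower (-0.45, adjusted p = 0.00385) and miR-125a-5p was lower (-0.37, adjusted p = 0.0227). Without P10 replicates 1 and 2, 3.55% were called higher and 4.73% lower, and miR-99b (-0.78, adjusted p = 0.0169) and miR-125a-5p (-0.60, adjusted p = 0.0435) were called while miR-125b-5p (0.42, adjusted p = 0.137) was not. miR-99b was also called lower with a doubled floor (adjusted p = 0.0216), with median scaling (0.0437) and among the 70 miRNAs detected on all arrays (0.0449). In these settings 3.21%, 5.73% and 2.86% of tested miRNAs were called higher and 9.62%, 4.46% and 14.3% lower. The doubled floor also called miR-125a-5p lower (adjusted p = 0.0307).

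The clusters were then compared within arrays, by subtracting one family member's log2 level from that of another on the same array. Dividing an array by any constant leaves such a difference unchanged, except through the floor on dim signals. Quantile scaling does alter it, giving a change with age of 0.67 for miR-99a minus miR-99b in place of the 0.84 below. Its size is not read, because different probes differ in brightness, and only its change with age is. For miR-125b-5p minus miR-125a-5p, which share a seed, the arrays gave 3.94, 3.86, 2.19 and 2.27 at P10 and 0.98, 1.45, 1.15 and 1.25 at P0. The change was 1.86, a 3.62-fold shift toward miR-125b-5p, and the lowest P10 array lay above the highest P0 array.

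The miR-99/100 family shifted in the same sense. For miR-100 minus miR-99b, which also share a seed, the differences were 0.12, 0.07, -0.14 and -0.26 at P10 and -2.50, -1.31, -1.33 and -1.23 at P0, a change of 1.54. For miR-99a minus miR-99b they were 1.67, 1.62, 1.92 and 1.84 at P10 and 0.48, 1.05, 1.03 and 1.12 at P0, a change of 0.84. Each of the 3 changes had an exact two-sided permutation p of 0.0286, the smallest that 70 arrangements allow, and 0.0286 after adjustment over the 3 pairs. miR-99b serves in both of the last pairs, so these are not independent. For miR-125b-5p minus miR-125a-5p and miR-100 minus miR-99b, 1 member lay wholly higher at P10 and the other wholly lower. Every P10 difference then had to lie above every P0 difference. The p of these pairs therefore repeats the separation of the levels given above and adds no support. Only for miR-99a minus miR-99b was it not fixed in this way, since the levels of miR-99a overlapped. Without P0 replicate 1 the changes were 1.78, 1.24 and 0.69 for the 3 pairs in the order given. Leaving out any single P0 array gave the first pair an exact permutation p of 0.0571 to 0.0857, with a change of 1.78 to 1.94. With the P10 pairs averaged the exact p was 0.0667 for each, the smallest that 15 arrangements allow.

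**Figure D2:**
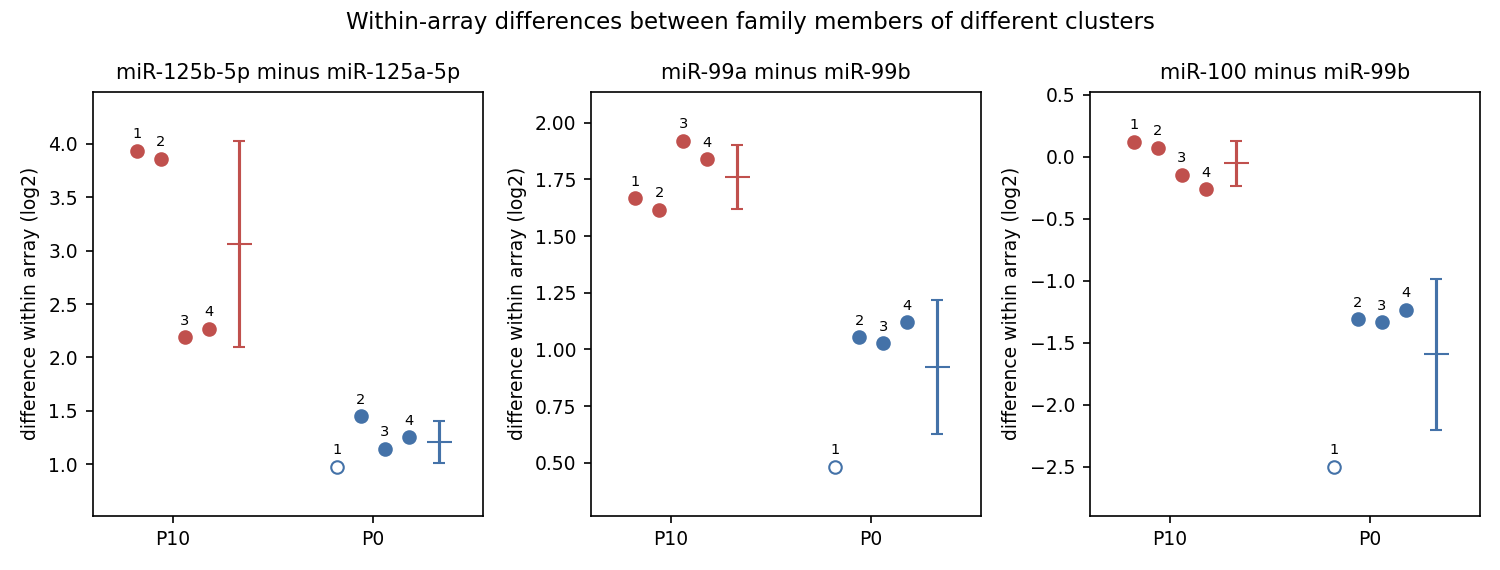
Within-array log2 differences (vertical axes) between family members from different clusters, for P10 and P0 arrays. Points are arrays numbered by replicate, the open point is P0 replicate 1, and bars are mean ± SD (n = 4). In all 3 pairs every P10 array lies above every P0 array.

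None of the 3 let-7 members of the clusters was called by limma with all 8 arrays, and none had an unadjusted p under 0.05. let-7e, from the miR-99b/miR-125a cluster, had a difference of 0.17 ± 0.23 (SE, limma adjusted p = 0.649) where miR-99b and miR-125a-5p were negative. let-7c was at 1.52, 1.52, 0.82 and 0.84 at P10, against 0.60, 0.65, 0.76 and 0.69 at P0, with no overlap and a difference of 0.50 ± 0.24 (SE, adjusted p = 0.214). let-7a, from the miR-100 cluster among other genes, had -0.056 ± 0.23 (SE, adjusted p = 0.895). Without P0 replicate 1 let-7a was called lower at P10 (-0.33 ± 0.10 SE, limma adjusted p = 0.0354), while miR-100 was called higher. let-7c was called higher in 1 of 25 alternatives (limma adjusted p = 0.000881), and let-7e also passed the threshold in 1 of 25 (0.0439). Within arrays, let-7c minus let-7e was 1.80, 1.82, 1.67 and 1.72 at P10 and 1.57, 1.33, 1.33 and 1.46 at P0. That change of 0.33 had the direction seen for the miR-99/100 and miR-125 pairs, with no overlap. let-7a minus let-7e went the other way, at 2.18, 2.12, 2.29 and 2.11 at P10 and 2.35, 2.44, 2.32 and 2.50 at P0. Its change was -0.23, also with no overlap, and neither let-7 change was tested. The let-7e probe has 1 mismatch in 19 letters to let-7a, and several let-7 members have more than 1 gene, so these signals can be shared. Of the other 5 let-7 family members tested, 0 were called (limma), with differences of -0.35 for miR-98 to 0.77 for let-7b, whose unadjusted p of 0.0372 was the only one under 0.05.

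Of 11 further strands of the clusters, let-7 included, 5 were tested. miR-99b* was well above background on all 4 P10 arrays, at 41.8, 26.5, 33.2 and 27.5 units. On the P0 arrays it read 5.2, 13.1, 14.0 and 15.2 units and was not well above background on any. Scaled levels were -3.97, -4.45, -5.26 and -5.53 at P10 and -4.46, -5.89, -5.85 and -5.89 at P0, so the ages overlapped. With P0 signals raised to at least each array's dimmest detected signal, the mean level was 1.24-fold higher at P10. That is a difference of means without its spread, and the measured levels gave a limma adjusted p of 0.309. Without P0 replicate 1 miR-99b* was called higher (0.96 ± 0.24 SE, limma adjusted p = 0.0198), while miR-99b was called lower. miR-99b* entered the test only through the P10 arrays, and its remaining P0 levels were at or near the floor. That call is therefore no support for a difference between the strands. miR-125b*, from Mir125b2, had a difference of 0.13 ± 0.30 (SE, adjusted p = 0.797), and it passed the limma threshold in 1 of 23 alternatives (adjusted p = 0.0203). miR-351, which also holds the miR-125 seed, was detected on 1 of 8 arrays, P0 replicate 2, and was not tested.

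**Figure D3:**
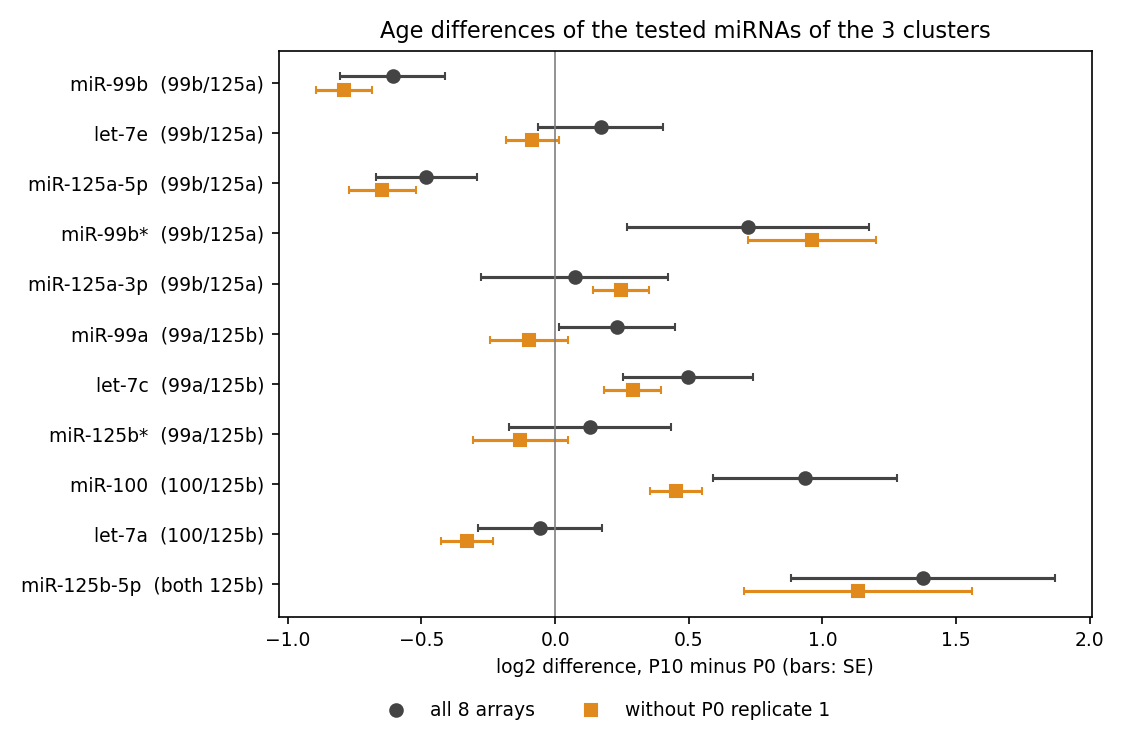
Age differences, P10 minus P0 on the log2 scale (horizontal axis), of the 11 tested miRNAs of the 3 clusters with SE bars. Circles use all 8 arrays and squares leave out P0 replicate 1. miR-99b, miR-125a-5p and let-7a are on the negative side under both. miR-100, miR-125b-5p, let-7c, miR-99b* and miR-125a-3p are on the positive side under both, the last 2 from the miR-99b/miR-125a cluster.

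Within-array differences between a miRNA and an opposite strand also differed with age. These pairs were picked after their values were seen, so they are a description with no test. miR-99b minus miR-99b* was 1.22, 1.70, 2.08 and 2.51 at P10 and 2.14, 3.61, 3.53 and 3.54 at P0. miR-125a-5p minus miR-125a-3p was 2.68, 2.69, 2.99 and 2.86 at P10 and 2.41, 3.69, 3.68 and 3.66 at P0. In both, every P10 array lay below P0 replicates 2 to 4, while P0 replicate 1, where neither dim strand counted as detected, did not follow. miR-99b* was at or near the floor on P0 replicates 2 to 4, so its differences there are only lower bounds. miR-125b-5p minus miR-125b* sets the product of Mir125b1 and Mir125b2 together against a strand of Mir125b2 alone. Its change was 1.25, in the opposite direction, and the ages did not overlap.

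**Figure D4:**
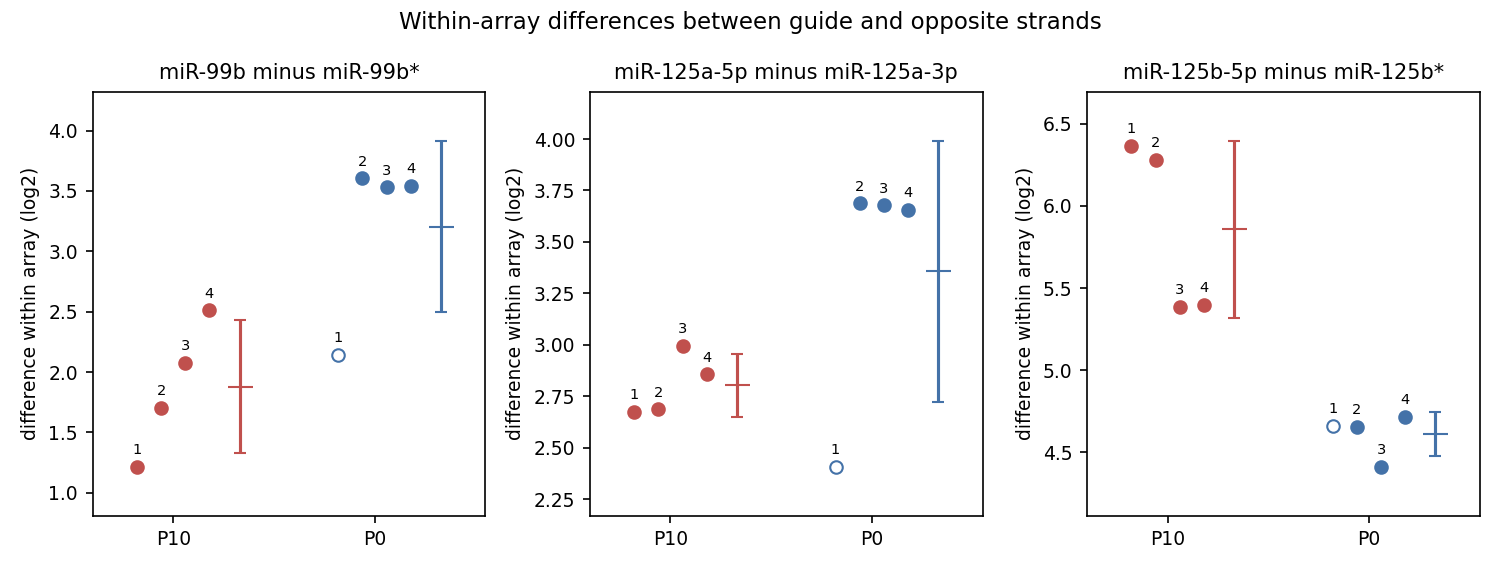
Within-array log2 differences between a miRNA and an opposite strand (vertical axes) on P10 and P0 arrays. The first 2 panels are strands of 1 hairpin each, and in the last the miR-125b-5p signal also includes Mir125b1. Points are arrays numbered by replicate, the open point is P0 replicate 1, and bars are mean ± SD (n = 4). In the first 2 panels the P10 arrays lie below P0 replicates 2 to 4, and in the last one they lie above all P0 arrays.

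Markers of other cells differed between the ages and between the P10 pairs. The summed scaled signal of miR-199a-3p, miR-199a-5p and miR-214 was 2.62, 2.69, 0.264 and 0.244 on P10 arrays 1 to 4 and 0.116, 0.179, 0.173 and 0.180 on the P0 arrays. P10 replicates 1 and 2, which carried the highest miR-125b-5p levels, also carried the highest sums of these markers. Their cardiomyocyte sums were the lowest, at 10.1 and 9.26. Of 5 cardiomyocyte miRNAs tested, miR-208 was called higher at P10 (1.14, limma adjusted p = 0.0279), from the floor at P0. The other 4 had differences of -0.75 to -0.020 and were not called. All 3 mesenchymal markers were higher on every P10 array than on every P0 array, and 0 of the 3 were called by limma (adjusted p = 0.0900 to 0.138), with 3 of 3 at an unadjusted p under 0.05. The endothelial marker miR-126 was at 0.149 to 0.247 at P10 and 0.0169 to 0.0609 at P0, and it was called higher (limma adjusted p = 0.0211). The summed leukocyte signal was 0.242, 0.239, 0.105 and 0.107 on P10 arrays 1 to 4 and 0.255, 0.0895, 0.102 and 0.0919 on P0 arrays 1 to 4. The highest P0 sum was that of the dim replicate 1. miR-142-5p and miR-150 were at the floor on every array, so each sum is partly floor. Of 2 leukocyte miRNAs tested, miR-146a was called higher (limma adjusted p = 0.0427), from the floor at P0. miR-223 had a difference of -0.24 and was not called (limma adjusted p = 0.837). Smooth muscle signal was 0.852 to 1.17 at P10 and 1.37 to 2.17 at P0, with miR-143 called lower (adjusted p = 0.0427). The part of these cells in the miR-125b-5p difference was not tested. Without P10 replicates 1 and 2 the within-array change of miR-125b-5p against miR-125a-5p was 1.02, and that of miR-100 against miR-99b was 1.39.

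**Figure D5:**
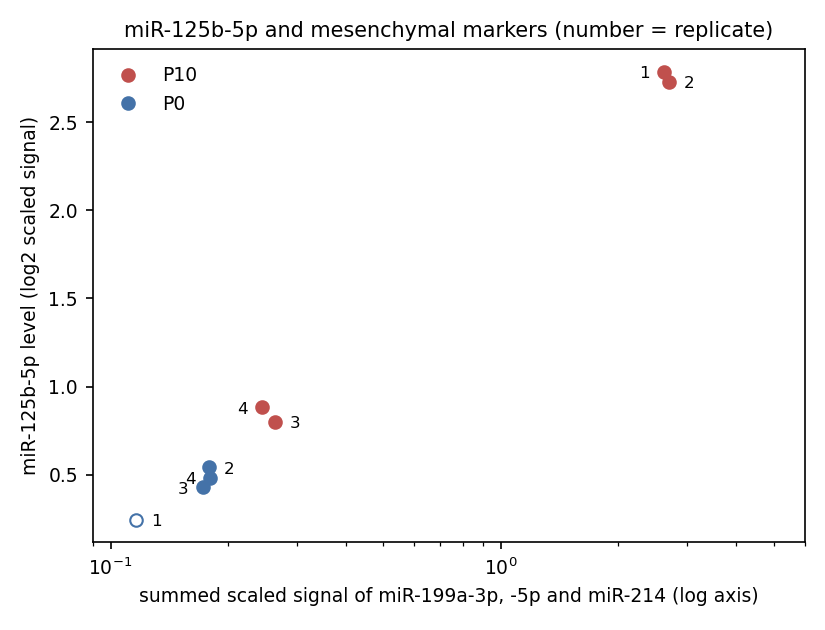
Scaled log2 level of miR-125b-5p (vertical axis) against the summed scaled signal of 3 mesenchymal miRNAs (horizontal log axis), with 1 point per array numbered by replicate. P10 replicates 1 and 2 are highest on both axes, and P10 replicates 3 and 4 lie just above the P0 arrays.

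The miRNAs with the most similar pattern over the 8 arrays differed between the clusters. Among 151 other tested miRNAs, miR-125b-5p was closest to miR-199a-5p (Pearson r = 0.997), miR-29b (0.995) and miR-221 (0.994). miR-221 was detected on 0 P0 arrays and lay at the floor there, and miR-199a-5p was not detected on P0 replicate 1. miR-125b-5p itself had an SD of 1.11 at P10 and 0.13 at P0, so these coefficients say little about likeness at P0. miR-125a-5p was closest to miR-484 (0.935), miR-347 (0.920) and miR-345-5p (0.903), and miR-99b to miR-500 (0.940), miR-484 (0.914) and miR-347 (0.896). miR-99a was closest to miR-101b (0.981), miR-152 (0.972) and miR-29c (0.958), of which the first 2 had 0.840 and 0.812 without P0 replicate 1. Among the members themselves miR-99b and miR-125a-5p had r = 0.963 and miR-99a and miR-100 had 0.931. These coefficients describe 8 arrays that share their scaling factors, and carry no test.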

How the data were processed

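Total RNA was labelled with Cy3 per the labels' protocols and hybridised to 8 Agilent rat miRNA arrays. Per the file headers, the deposited scanner files hold spot intensity values written by Agilent Feature Extraction 10.7.1.1 on build rn4, where the processed signal is background-subtracted with spatial detrending and not scaled between arrays. The deposited matrix of the authors holds log2 values whose normalization the sources here do not state. It was used as an alternative only (155 of the 157 tested miRNAs matched by accession).

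Unflagged spots of a probe were averaged. Detection needed a share of 0.5 or more of a probe's spots flagged well above background. After division by the 75th percentile, a floor of 0.0169 (log2 -5.89) was set and log2 taken. Of a miRNA's probes, the one with the highest mean scaled, floored signal was used. Earlier results of these data gave 158 tested miRNAs in place of 157, and 3 other readings of that mean were tried to find the difference: unfloored signal, log2 signal and raw intensity. Each gave 157 tested, the same 14 calls and no member called. Testing needed detection on every array of either age. Levels are given with SD and differences (P10 minus P0) with SE from limma 3.58.1 in R 4.3.3, which was tested on simulated data. Within-array differences had exact permutation tests.

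The members and lists were chosen with earlier results of these data known. Named are the members, the other strands of their clusters, miR-351, the let-7 family by counts, 3 most similar miRNAs for each member detected on all arrays, and cell markers. Alternatives changed scaling, background, floor, probe, filter, replicates and the replicate block. The labels do not say that replicate numbers pair the samples. Deviations from the age means correlated at 0.16, -0.15, 0.027 and 0.13 for replicates 1 to 4. With the P10 arrays in pairs and P0 replicate 1 apart, such values cannot show whether samples were paired. The number of arrays limits precision; no miRNA spot was saturated.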

Additional observations from a re-analysis of the deposited data

Results flagged for a closer look

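Of 28 groups of 4 arrays examined (levels of the members and tested cluster partners, and the 3 within-array differences, at each age), 7 had 1 array far from the others, where chance flags about 1 in 20. In all 7 it was P0 replicate 1, the dim array. Its scaled log2 level was -3.14 for miR-125a-3p, -1.84 for miR-99a, -4.82 for miR-100, 1.39 for let-7a and -4.46 for miR-99b*. Its within-array difference was 0.48 for miR-99a minus miR-99b and -2.50 for miR-100 minus miR-99b. miR-125a-3p, miR-100 and miR-99b* were not well above background on that array. The groups share arrays, so the 7 are not independent of each other. No P10 group was flagged. The P10 arrays fell into near-identical pairs, and a rule for 1 distant array can hardly flag such a group, so this does not show that the P10 arrays were alike.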

How the results depend on the processing

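The 3 within-array changes were positive in all 25 alternatives run, at 1.02 to 2.69 for miR-125b-5p minus miR-125a-5p, 0.65 to 1.08 for miR-99a minus miR-99b and 0.70 to 3.01 for miR-100 minus miR-99b. In that order they were 1.86, 0.84 and 1.54 with the P10 pairs averaged (exact permutation p = 0.0667), 1.02, 0.96 and 1.39 without both P10 replicates 1 and 2 (0.0667), and 2.69, 0.72 and 1.69 without both P10 replicates 3 and 4 (0.0667). With P0 replicate 1 left out and the P10 pairs averaged, a setting chosen after seeing the data, they were 1.78, 0.69 and 1.24 (0.1). With the replicate block they were 1.86, 0.84 and 1.54, with an exact sign-flip p of 0.125. Those are the smallest p-values such designs allow. Leaving out 1 array gave 1.56 to 2.15 for the first pair, with an exact p of 0.0286 to 0.0857.

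Calls over all miRNAs (7 higher, 7 lower) depended strongly on the setting. Leaving out 1 array gave 2 to 25 higher and 2 to 46 lower, with 0 to 1 member higher and 0 to 2 lower. There were 0 lower without scaling, 0 and 0 (higher and lower) with normexp, total gene signal or averaged pairs, and 1 and 3 with no floor or no detection filter. The authors' deposited log2 matrix gave 1 and 1, the replicate block 3 and 1, and the doubled floor 15 lower. miRNAs detected on all arrays gave 2 higher, leaving out P10 replicates 3 and 4 gave 50 and 26, and the setting chosen after seeing the data 11 and 22. Members called lower were 1 with median scaling or miRNAs detected on all arrays. They were 2 with the doubled floor, without P10 replicates 1 and 2, without P10 replicates 3 and 4 (with 1 higher) and in the setting chosen after seeing the data.

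Signs turned for miR-125a-5p in 1 alternative, and for several other miRNAs. Without scaling miR-125a-5p was 0.043 and let-7a 0.47. With normexp miR-125a-3p was -0.17, let-7a 0.0063, miR-99b* -0.17 and miR-125b* -0.31. With total gene signal miR-125a-3p was -0.16, miR-99a -0.023 and let-7e -0.093. Without P10 replicates 1 and 2 miR-125a-3p was -0.17, let-7e -0.12 and miR-125b* -0.36, and without 3 and 4 let-7a was 0.19. In the setting chosen after seeing the data miR-99a was -0.10, let-7e -0.085 and miR-125b* -0.13. Leaving out 1 array gave -0.093 to 0.25 for miR-125a-3p, -0.10 to 0.29 for miR-99a, -0.33 to 0.053 for let-7a, -0.085 to 0.26 for let-7e and -0.13 to 0.31 for miR-125b*. The causes were not tested. The median over all tested miRNAs shifted to 0.35 without scaling, 0.44 in the authors' deposited log2 matrix, -0.12 with quantile scaling and -0.25 with normexp. The 75th percentile over all probes was not run, because it was not above 0 on some array.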
